A study of Mus musculus with 12 samples.

Results

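The genes described here are 9 genes by which lymphatic endothelium is recognised or through which it grows: Vegfc, Flt4, Prox1, Foxc2, Itga9, Pdpn, Mmrn1, Reln and Ccl21a. They were taken by symbol from a table of 47747 gene symbols, and all 9 were found and all 9 passed the filter on low counts, as 18593 symbols did. RNA came from meninges, the membranes around the brain, of 12 mice of the strain C57bl/6, with each library read as 1 mouse. Of these, 6 had drunk 2% dextran sulfate sodium (DSS), which damages the lining of the colon and is used to model colitis, for 5 days and then normal water, and 6 were controls, whose drinking water is not described. The mice were culled after 6 days, and the labels give no age and no genotype beyond the strain. The source field of the labels reads colon, while titles and extraction protocol name meninges, and the libraries were read as meninges. All 8 listed fibroblast genes passed the filter. Their summed level was 11057.4 to 21634.5 CPM in DSS libraries and 12168.3 to 18964.5 CPM in Control libraries. These are general genes of connective tissue, so their level cannot decide between the 2 tissue names. Bone and choroid plexus adjoin the meninges and not the colon, and their genes were counted in every library. Bglap of bone was at 167 to 808 CPM in DSS and 301 to 847 CPM in Control libraries. Ttr of choroid plexus was at 4.23 to 6540.5 CPM in DSS and 9.12 to 6426.1 CPM in Control libraries. These levels go with the name in the titles. CPM is the number of counts of a gene relative to the library's total, adjusted by TMM normalization.

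Libraries held 13078923 to 28544877 counts in DSS mice and 9312788 to 41869997 counts in controls. Control replicate 2 stood apart, with 28047534 counts but a median-of-ratios size factor of 0.530. DSS replicate 2 was the least deep of its group, and fits without both replicates numbered 2 are given where they matter. Skeletal muscle genes summed to 11.1 to 200 CPM in DSS libraries and 19.4 to 27.3 CPM in Control libraries. For each of Myh4, Acta1 and Ckm, 1 DSS mouse lay above the highest control and 5 lay below the control median. For Actn3, 3 DSS mice lay above the highest control and 3 below the lowest. Choroid plexus genes summed to 320 to 9518.4 CPM in DSS and 282 to 9547.1 CPM in Control libraries. Pituitary genes summed to 0.630 to 42.1 CPM in DSS and 1.00 to 74.1 CPM in Control libraries. The part of these neighbouring tissues in the levels of the members was not tested. None of the 8 muscle, 7 choroid plexus and 4 pituitary genes tested was called by edgeR's test.

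Lymphatic vessels of the meninges run in the dura along the venous sinuses and drain fluid, solutes and immune cells towards the neck. Their endothelial cells arise from veins under the transcription factor Prox1, and they sprout and survive through the ligand VEGF-C acting on its receptor VEGFR-3, the product of Flt4. Foxc2 and the integrin subunit encoded by Itga9 shape the valves of collecting vessels, Pdpn encodes the glycoprotein podoplanin of the vessel surface, Mmrn1 and Reln encode secreted proteins made by these cells, and Ccl21a encodes a chemokine that draws cells bearing CCR7, such as dendritic cells, into the vessels. Most of these genes are also transcribed elsewhere: Pdpn in fibroblasts and young osteocytes, Foxc2 in mesenchyme, Mmrn1 in megakaryocytes, Reln in neurons, and Itga9 in leukocytes and smooth muscle.

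One member cannot be read alone. The annotation holds several near-identical copies of the Ccl21 gene on chromosome 4, and over the 402 coding bases Ccl21a differed from each of Ccl21b, Gm13304, Gm10591 and Gm21541 at 2 bases, while these 4 were identical to each other. The differences were T84A and C194T, with the base of Ccl21a first and positions counted from 1 at the first base of the start codon. The stretch from coding base 64 to 214 is shown to make clear how little sequence separates the copies, with the differing bases in capitals (transcripts of GENCODE M21, GRCm38, 5′ to 3′).
Ccl21a: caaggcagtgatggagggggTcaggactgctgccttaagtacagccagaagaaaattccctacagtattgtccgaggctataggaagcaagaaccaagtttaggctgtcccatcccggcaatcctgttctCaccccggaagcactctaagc
Ccl21b: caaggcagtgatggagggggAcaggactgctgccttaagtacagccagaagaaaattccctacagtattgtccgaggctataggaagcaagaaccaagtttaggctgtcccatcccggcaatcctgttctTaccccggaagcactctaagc
A read that covers neither position gives no base in the coding region by which to tell Ccl21a from the others, so the counts of each copy are uncertain.

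In the GENCODE M21 annotation of GRCm38 (mm10), Vegfc lies on chromosome 8 from 54077606 to 54187096 and Flt4 on chromosome 11 from 49609263 to 49652739. Prox1 lies on chromosome 1 from 190118035 to 190170714, Foxc2 on chromosome 8 from 121116171 to 121118895 and Itga9 on chromosome 9 from 118606690 to 118901003. Pdpn lies on chromosome 4 from 143267431 to 143299564, Mmrn1 on chromosome 6 from 60924976 to 60989378, Reln on chromosome 5 from 21884454 to 22344702 and Ccl21a on chromosome 4 from 42772860 to 42773993. All 9 are protein-coding, and counts cover whole genes, so no exon or untranslated region is singled out. Antisense genes overlap the exons of Prox1 by 133 bases and those of Reln by 246 bases, and both antisense genes had few counts, 0 to 1 over all libraries for Prox1os and 0 to 3 for Gm10475. Gm20388 overlaps Foxc2 on the same strand with no shared exon base, and had 729 to 3411 counts.

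Most lymphatic endothelial genes showed no detectable difference between DSS and Control meninges, with a pair of exceptions that went in opposite directions. Itga9 rose 1.27-fold and Pdpn fell by 17.6%, and the other 7 members were not called. Of all 18593 tested genes 4.94% were called (quasi-likelihood test of edgeR, Benjamini-Hochberg adjusted over all of them, at 0.05), 3.68% as higher and 1.26% as lower in DSS. Of the 9 members 6 had a fold change below 0 on the log2 scale, as 54.7% of all tested genes had. No member separated the groups fully; of all tested genes 2.23% did so with higher and 0.823% with lower values in DSS. The median log2 fold change of the 9 members was -0.09, and that of all tested genes was -0.022. In tissue RNA, fewer cells of a type and less RNA per cell cannot be told apart.

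**Figure D1:**
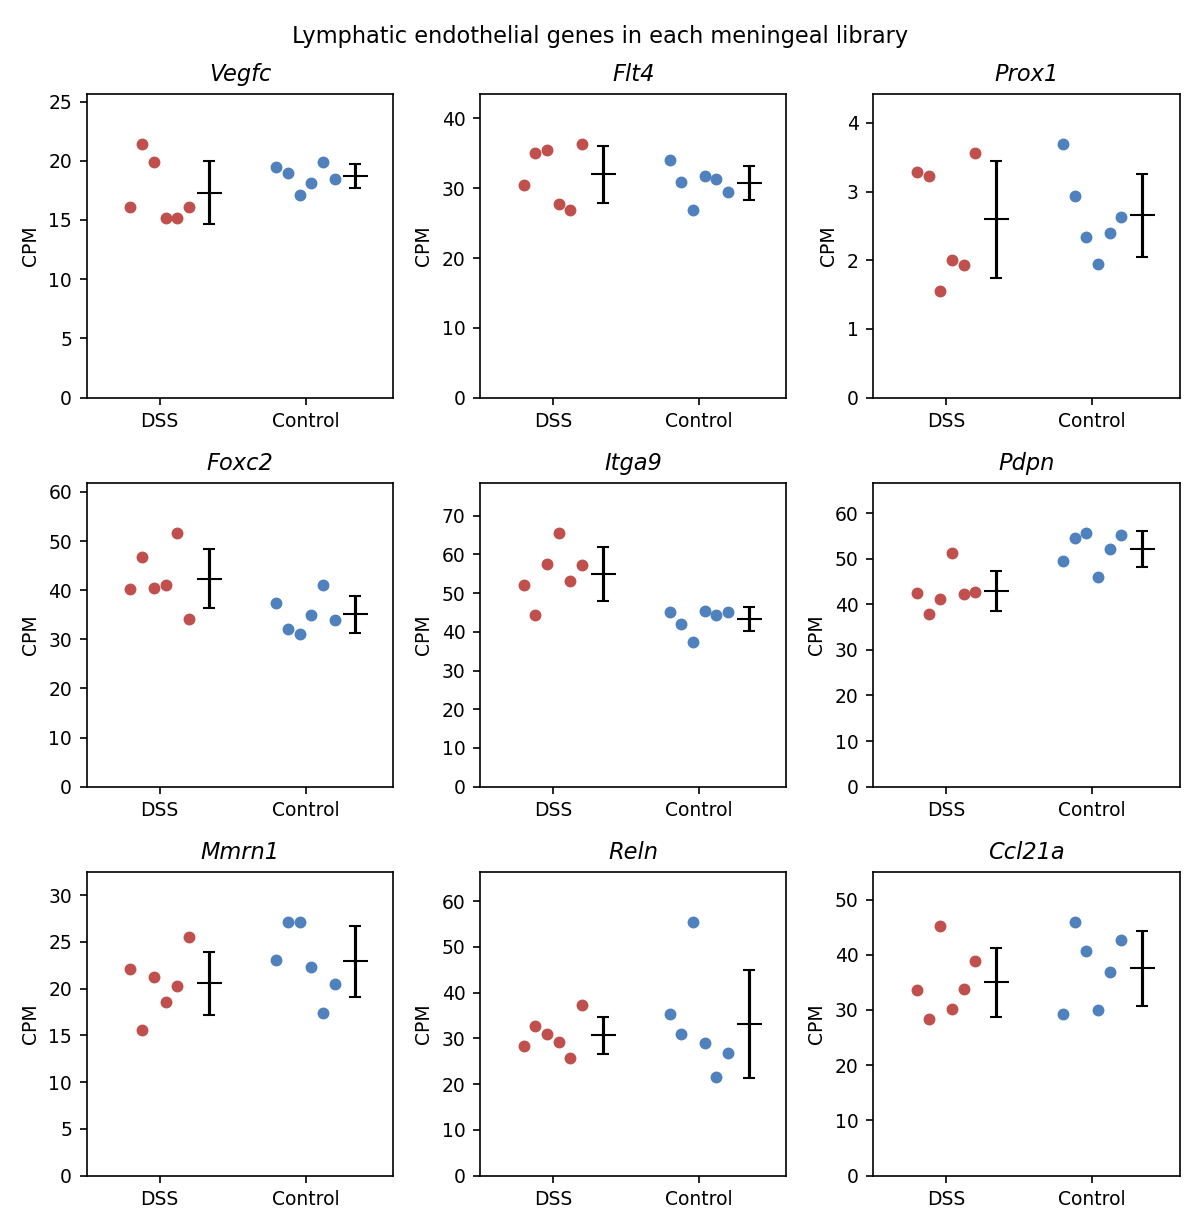
Level of each lymphatic endothelial gene in CPM (vertical axis, from 0) in the 6 DSS libraries (red, left) and the 6 Control libraries (blue, right), 1 point per mouse, with mean and SD in black. Itga9 and Pdpn are the members whose groups come closest to separating, with Itga9 higher in DSS and Pdpn lower; the ranges of the groups overlap for all 9 genes.

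Vegfc encodes the growth factor that drives lymphatic sprouting. Its level was 16.1, 21.4, 19.9, 15.2, 15.2 and 16.1 CPM in DSS replicates 1 to 6, against 19.5, 19.0, 17.1, 18.1, 19.9 and 18.5 CPM in Control replicates 1 to 6. Of the DSS mice 4 lay below the lowest control and 2 above the highest, so DSS libraries were spread on both sides of a narrow control range. The log2 fold change was -0.12 ± 0.09 SE, with a 95% interval of -0.31 to 0.08 (edgeR, adjusted p = 0.562).

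Flt4 encodes the receptor of that ligand and is transcribed in lymphatic and in some blood endothelium. It lay at 30.5, 35.0, 35.4, 27.7, 26.9 and 36.3 CPM in DSS mice, against 34.1, 30.9, 26.9, 31.7, 31.3 and 29.4 CPM in controls. The DSS range covered the whole control range (log2 fold change 0.05 ± 0.09 SE, 95% interval -0.14 to 0.25, edgeR adjusted p = 0.817). The ratio of Vegfc to Flt4, ligand to receptor, was 0.529, 0.610, 0.564, 0.550, 0.566 and 0.444 in DSS libraries and 0.571, 0.617, 0.635, 0.573, 0.636 and 0.631 in Control libraries. It lay below the lowest control in 5 of 6 DSS mice (exact two-sided permutation test, p = 0.0130), but the difference did not pass after adjustment over the 6 ratios and sums tested in this way (adjusted p = 0.0780), which were chosen with the levels of the members already known.

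Other genes of this and related VEGF pathways did not pass the test either. Of 9 tested genes of VEGF ligands, receptors and their partners, Vegfa and Flt1 among them, none rose and none fell by edgeR's test. All 9 had log2 fold changes between 0.06 and 0.19, at a median of 0.12. They include Figf, the gene of the second ligand VEGF-D, at 1.53 ± 0.335 CPM in DSS mice and 1.44 ± 0.213 CPM in controls (SD, n = 6 each), and the co-receptor gene Nrp2, at 196 ± 25.5 CPM in DSS mice and 181 ± 19.2 CPM in controls (edgeR, adjusted p = 0.863 and 0.601). Ccbe1 and Adamts3, whose products process VEGF-C to its active form, were at 0.19 ± 0.19 SE and 0.12 ± 0.11 SE on the scale of log2 fold changes.

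Prox1 and Foxc2 are the transcription factor genes among the members. Prox1 was the member with the fewest reads, 39 to 107 counts in DSS libraries and 26 to 171 counts in Control libraries. Its level was 3.28, 3.23, 1.56, 2.01, 1.93 and 3.56 CPM in DSS mice, against 3.69, 2.93, 2.34, 1.94, 2.40 and 2.63 CPM in controls. DSS libraries lay in part above 3 CPM and in part near or below the lowest control, around similar means of 2.59 ± 0.857 CPM in DSS mice and 2.65 ± 0.605 CPM in controls (SD, n = 6 each). The 95% interval of its log2 fold change, -0.54 to 0.45, is the widest among the members, and its bounds correspond to folds of 0.687 and 1.36 (estimate -0.05 ± 0.23 SE, edgeR adjusted p = 0.952).

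Foxc2, which encodes a forkhead factor of lymphatic valves and of mesenchyme, lay at 40.2, 46.8, 40.4, 41.1, 51.6 and 34.1 CPM in DSS mice, against 37.3, 32.0, 31.0, 35.0, 41.1 and 34.0 CPM in controls. In 5 of 6 DSS mice the level was above the control median of 34.5 CPM, and 3 of them lay above the highest control, while DSS replicates 1, 3 and 6 lay inside the control range. Its log2 fold change of 0.27 ± 0.10 SE had an unadjusted p of 0.0158 in edgeR's test, a level of 0.05 that 19% of the tested genes reached without adjustment, and it did not pass after adjustment (adjusted p = 0.14). Of other transcription factor genes of lymphatic development, Sox18 and Nr2f2 act upstream of Prox1, and neither was called; the log2 fold change was 0.09 ± 0.15 SE for Sox18 and 0.05 ± 0.13 SE for Nr2f2.

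Itga9 encodes the integrin alpha 9 subunit, which binds tenascin C, osteopontin and a splice form of fibronectin and is needed for valve leaflets. It was the only member that rose. Its level was 52.0, 44.4, 57.6, 65.5, 53.1 and 57.2 CPM in DSS mice, against 45.2, 42.0, 37.5, 45.4, 44.4 and 45.1 CPM in controls. All DSS libraries except DSS replicate 2 lay above the highest control. The log2 fold change was 0.34 ± 0.08 SE, a fold of 1.27 with a 95% interval of 1.12 to 1.44 (edgeR, adjusted p = 0.0316). The call was lost without DSS replicate 3, 4 or 6 or Control replicate 3 or 5, at adjusted p between 0.0577 and 0.0761, and it was lost when libraries were scaled to 15 pan-endothelial genes, where the log2 fold change was 0.19 (adjusted p = 0.363). That scaling moved the median of all tested genes by -0.163 on the log2 scale.

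Neutrophil genes, markers of a cell type in which Itga9 can be transcribed, were also higher in DSS mice. All 9 tested neutrophil genes rose, by a median of 3.31 on the log2 scale, and their summed level was 253 to 1368.3 CPM in DSS libraries, against 66.0 to 193 CPM in Control libraries. Csf3r, which encodes the G-CSF receptor, was at 21.8 ± 4.81 CPM in DSS mice and 6.87 ± 1.04 CPM in controls (SD, n = 6 each), and Ltf, Cd177 and Lcn2 were at 150 ± 57.3, 34.1 ± 13.2 and 96.9 ± 45.1 CPM in DSS mice and at 15.4 ± 6.28, 3.26 ± 1.35 and 7.33 ± 3.29 CPM in controls. Whether these genes and Itga9 varied together from mouse to mouse was not tested. The part of neutrophils, or of smooth muscle, in the level of Itga9 was not tested either.

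Pdpn encodes podoplanin, the surface glycoprotein that binds the platelet receptor CLEC-2 and keeps blood out of lymph vessels. It was the only member that fell. Its level was 42.4, 37.8, 41.2, 51.3, 42.2 and 42.6 CPM in DSS mice, against 49.4, 54.6, 55.6, 45.9, 52.1 and 55.3 CPM in controls. In 5 of 6 DSS mice Pdpn lay below the lowest control, and DSS replicate 4 lay inside the control range. The log2 fold change was -0.28 ± 0.08 SE (edgeR, adjusted p = 0.0487), which corresponds to a fold of 0.824 with a 95% interval of 0.736 to 0.922. This call is close to its threshold: of the 12 fits that leave out 1 mouse it was kept only without DSS replicate 4 or Control replicate 4, with adjusted p of 0.0159 to 0.117 over all of them. Without both replicates numbered 2, Itga9 was still called (adjusted p = 0.0104) and Pdpn was not (adjusted p = 0.131).

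Bone cells and fibroblasts also transcribe Pdpn. The 9 listed osteoblast and osteocyte genes had a summed level of 370 to 1661.4 CPM in DSS libraries and 676 to 1753.7 CPM in Control libraries. Of 7 tested, 1 fell: Ibsp, the bone sialoprotein gene, was at 16.2 ± 6.88 CPM in DSS mice and 34.3 ± 11.6 CPM in controls (SD, n = 6 each; edgeR, adjusted p = 0.0416), and the median log2 fold change of the list was -0.43. Of the osteocyte genes in the list, Sost and Mepe were near 0, at 0 to 6 and 0 to 18 counts per library, while Dmp1 was at 2.61 ± 1.46 CPM in DSS mice and 4.52 ± 0.517 CPM in controls (log2 fold change -0.78 ± 0.28 SE, edgeR adjusted p = 0.129). Phex was at 3.12 ± 1.09 CPM in DSS mice and 4.21 ± 1.17 CPM in controls (log2 fold change -0.43 ± 0.24 SE, adjusted p = 0.356). Bglap and Bglap2, which had the highest levels of the list, changed less, by -0.18 ± 0.33 SE and -0.19 ± 0.33 SE on the log2 scale. Sp7 was nearly level, at 0.02 ± 0.13 SE (edgeR, adjusted p = 0.842, 0.832 and 0.964 for these 3 genes). Of 8 fibroblast genes none rose and none fell by edgeR's test, and their median log2 fold change was -0.13. The part of these cells in the level of Pdpn was not tested.

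Of the genes on the other side of the podoplanin contact, Clec1b, which encodes CLEC-2, was low, at 1.15 ± 0.249 CPM in DSS mice and 1.34 ± 0.568 CPM in controls (SD, n = 6 each). The genes of the signalling chain beneath it, which leukocytes share, rose in 3 of 3 cases. Syk, a tyrosine kinase gene, was at 35.8 ± 6.73 CPM in DSS mice and 21.7 ± 3.09 CPM in controls (edgeR, adjusted p = 0.00392), Plcg2, a phospholipase gene, at 30.4 ± 2.75 CPM in DSS mice and 23.6 ± 1.39 CPM in controls (adjusted p = 0.0091), and Lcp2, the gene of the adaptor SLP-76, at 16.8 ± 2.41 CPM in DSS mice and 11.7 ± 1.58 CPM in controls (adjusted p = 0.0133). The neutrophil genes given beside Itga9 were higher in DSS mice too. The part of neutrophils in the levels of Syk, Plcg2 and Lcp2 was not tested.

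**Figure D2:**
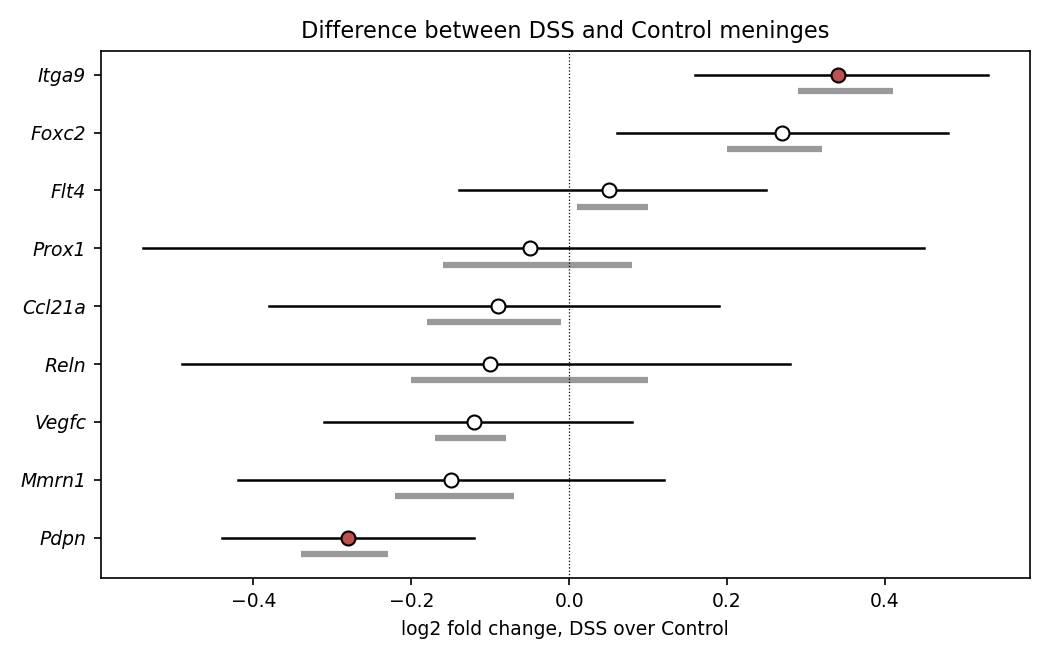
Log2 fold change of DSS over Control for the 9 lymphatic endothelial genes (circles; filled red where edgeR's adjusted p is under 0.05), with the 95% interval (black line) and the range over 12 fits that each leave out 1 mouse (grey bar). The intervals of Itga9, Foxc2 and Pdpn lie on one side of 0, those of the other 6 genes span it, and the grey bars of Prox1 and Reln cross 0.

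Mmrn1 and Reln encode large secreted proteins of lymphatic endothelium, multimerin 1 and reelin. Mmrn1 lay at 22.1, 15.6, 21.2, 18.6, 20.3 and 25.5 CPM in DSS mice, against 23.1, 27.1, 27.1, 22.3, 17.4 and 20.5 CPM in controls. Of the DSS mice 5 of 6 lay below the control median of 22.7 CPM, within the overall control range except for DSS replicate 2 (log2 fold change -0.15 ± 0.13 SE, edgeR adjusted p = 0.596). Multimerin is also a protein of platelets, and 11 megakaryocyte and platelet genes summed to 35.6 to 50.9 CPM in DSS libraries and 37.0 to 47.4 CPM in Control libraries. Of 7 tested, none rose and none fell by edgeR's test. Their log2 fold changes ran from -0.23 to 0.74 at a median of 0.03, with 3 below 0. Pf4, the platelet factor 4 gene that meningeal macrophages also transcribe, was the highest of the list. It was at 24.2 ± 5.66 CPM in DSS mice and 24.4 ± 4.83 CPM in controls. Gp5, Tubb1 and Ppbp, at far lower levels, had log2 fold changes of 0.74, 0.72 and 0.72 (edgeR, adjusted p = 0.362, 0.325 and 0.248). The part of platelets in the level of Mmrn1 was not tested.

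Reln lay at 28.3, 32.7, 30.9, 29.2, 25.7 and 37.4 CPM in DSS mice, against 35.3, 31.0, 55.4, 29.1, 21.5 and 26.8 CPM in controls. Control replicate 3 was far above every other library, and the control spread of 33.2 ± 11.8 CPM contained all DSS mice, at 30.7 ± 4.06 CPM (SD, n = 6 each). The log2 fold change of -0.10 ± 0.18 SE (edgeR, adjusted p = 0.833) became 0.10 without that library. The reelin receptor genes Vldlr and Lrp8 were at 69.3 ± 4.07 and 9.72 ± 2.51 CPM in DSS mice and at 77.0 ± 4.39 and 10.3 ± 2.12 CPM in controls, and neither was called. Neuronal genes, a second possible source of Reln, summed to 123 to 176 CPM in DSS libraries and 144 to 250 CPM in Control libraries. None of the 10 tested neuronal genes was called, and all 10 had log2 fold changes below 0, at a median of -0.53. Their part in the level of Reln was not tested.

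Ccl21a lay at 33.6, 28.3, 45.3, 30.2, 33.8 and 38.9 CPM in DSS mice, against 29.3, 45.9, 40.6, 30.0, 36.9 and 42.6 CPM in controls. The groups overlapped almost completely (log2 fold change -0.09 ± 0.13 SE, 95% interval -0.38 to 0.19, edgeR adjusted p = 0.777). The copies that share its sequence held most of the counts: over all copies together the level was 131, 141, 183, 144, 157 and 186 CPM in DSS mice, against 105, 168, 136, 139, 180 and 201 CPM in controls. With the counts of the copies added to Ccl21a, which was tried only once the values were known, the log2 fold change was 0.02 ± 0.14 SE (edgeR, adjusted p = 0.965), so neither way of counting gave a detectable difference.

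Of the counts of all Ccl21 copies, Ccl21a took 20.1% to 25.7% in DSS libraries and 20.6% to 29.9% in Control libraries. Gm13304 and Gm10591 each took between 28.5% and 34.7% in all libraries. Ccl21b took 5.28% in Control replicate 1 (exact Clopper-Pearson 95% interval 4.67% to 5.94%) and 5.53% in Control replicate 2 (4.57% to 6.63%), while DSS replicate 4 had 13.3% (12.1% to 14.4%) and Control replicate 6 had 12.9% (12.0% to 13.7%). These intervals cover counting error only, not the spread between mice. The Ccl21b share was 11.4 ± 1.93% in DSS mice and 9.65 ± 3.44% in controls (SD, n = 6 each; exact two-sided permutation test, p = 0.277). Ccl21c had 0 counts in every library.

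**Figure D3:**
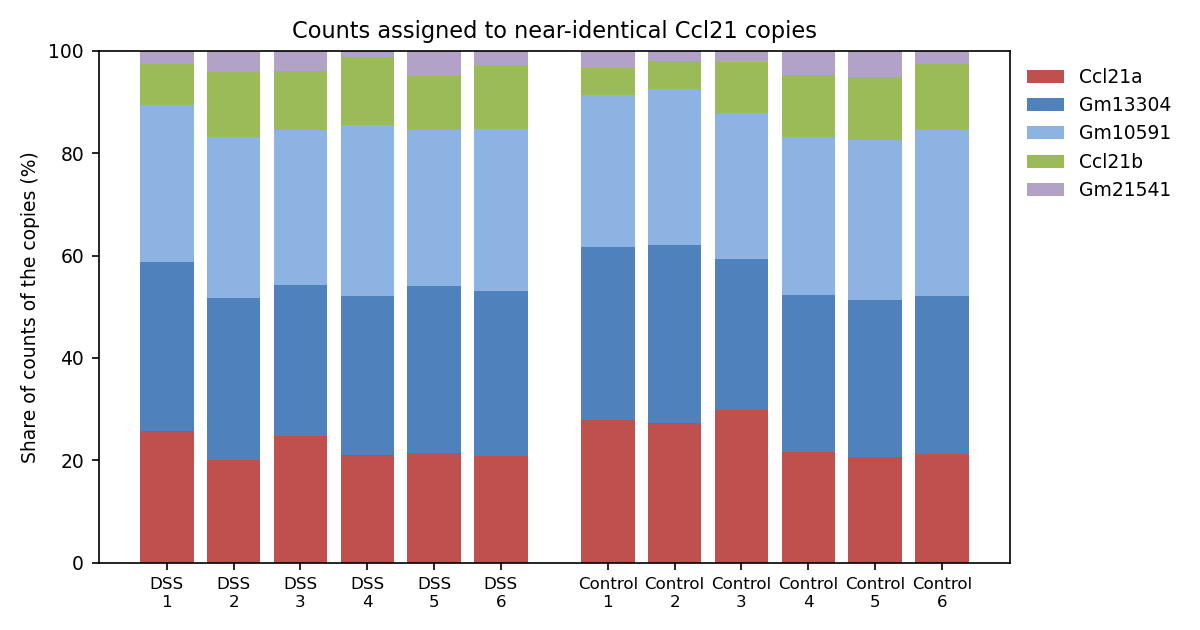
Share of the counts of the near-identical Ccl21 copies (vertical axis, percent) that the deposited table assigns to each copy, in 6 DSS libraries (left) and 6 Control libraries (right). Gm13304 and Gm10591 each hold 28.5% to 34.7%, while Ccl21b ranges from 5.28% in Control replicate 1 to 13.3% in DSS replicate 4.

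The receptor of the chemokine and its other ligand were not called. Ccr7, the receptor gene carried by dendritic cells and T cells, was at 1.96 ± 0.528 CPM in DSS mice and 0.972 ± 0.559 CPM in controls (SD, n = 6 each), a log2 fold change of 0.98 ± 0.33 SE that did not pass the test (edgeR, adjusted p = 0.105). Ccl19, the gene of its other ligand, was at 18.2 ± 4.36 CPM in DSS mice and 13.8 ± 3.08 CPM in controls (adjusted p = 0.23). Lyve1, a hyaluronan receptor gene that lymphatic vessels share with border macrophages, was at 17.2, 11.7, 13.1, 40.8, 18.7 and 15.3 CPM in DSS mice, against 11.1, 12.1, 14.6, 12.4, 10.5 and 16.5 CPM in controls. DSS replicate 4 stood far above the rest, and the difference was not called (log2 fold change 0.60 ± 0.26 SE, edgeR adjusted p = 0.22). Border macrophage genes summed to 521 to 1004.9 CPM in DSS libraries and 576 to 649 CPM in Control libraries, with none of 8 called, and their part in the level of Lyve1 was not tested. Of 14 tested surface and chemokine genes, none rose and none fell by edgeR's test, with a median log2 fold change of -0.03.

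Genes of vessel junctions, valves and the angiopoietin system held further calls among 61 tested genes of the wider lymphatic pathway, of which 5 rose, 2 fell and 54 were not called. Gja4, which encodes the valve connexin 37 and is also transcribed in arteries, was at 18.6 ± 1.37 CPM in DSS mice and 14.4 ± 2.07 CPM in controls (SD, n = 6 each; edgeR, adjusted p = 0.0364). Gja1, the connexin 43 gene, which fibroblasts and osteoblasts also transcribe, fell to 128 ± 12.9 CPM in DSS mice, against 170 ± 20.9 CPM in controls (edgeR, adjusted p = 0.0201). Angpt1, the gene of the Tie2 ligand angiopoietin 1, was at 14.0 ± 1.49 CPM in DSS mice and 19.0 ± 3.33 CPM in controls and fell (log2 fold change -0.43 ± 0.11 SE, edgeR adjusted p = 0.0404). Of the 4 adrenomedullin pathway genes tested none was called.

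The summed level of general endothelial genes overlapped between the groups. The 15 pan-endothelial genes summed to 1165.8 to 1651.9 CPM in DSS libraries and 1085.7 to 1493.2 CPM in Control libraries (exact two-sided permutation test of the sum, p = 0.121). The median log2 fold change of the list was 0.13, with 2 of the 15 genes below 0. Of these genes 1 rose, Eng, the endoglin gene, at 123 ± 11.5 CPM in DSS mice and 94.5 ± 14.2 CPM in controls (SD, n = 6 each; edgeR, adjusted p = 0.0394). Pecam1, which encodes a junction protein of all endothelium, had a log2 fold change of 0.22 ± 0.09 SE (edgeR, adjusted p = 0.226). Cdh5, the VE-cadherin gene, had one of 0.13 ± 0.10 SE (adjusted p = 0.547), and Kdr, the VEGFR-2 gene, 0.06 ± 0.12 SE (adjusted p = 0.86).

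Per kilobase of exon, the members differed far more among themselves than between groups. Ccl21a averaged 40.3 ± 7.11 CPM per kilobase in DSS mice and 43.2 ± 7.77 in controls (SD, n = 6 each), a level that depends on how the copies were counted. Pdpn followed at 23.6 ± 2.46 in DSS mice and 28.7 ± 2.12 in controls, and Foxc2 at 15.6 ± 2.23 in DSS mice and 12.9 ± 1.35 in controls. Vegfc and Itga9 came next. In DSS mice they averaged 7.07 ± 1.08 and 7.15 ± 0.913 CPM per kilobase, and Vegfc was the higher of the pair in 2 of 6 mice. In controls Vegfc averaged 7.63 ± 0.412 and Itga9 5.62 ± 0.402, and Vegfc was higher in 6 of 6 mice, with no overlap between the genes. Flt4 and Mmrn1 overlapped in both groups, with Flt4 higher in 4 of 6 DSS mice and 4 of 6 controls. Reln averaged 1.29 ± 0.171 CPM per kilobase in DSS mice and 1.40 ± 0.498 in controls, and Prox1 was lowest in all 12 libraries, at 0.309 ± 0.102 in DSS mice and 0.316 ± 0.0721 in controls. Every other neighbouring pair in this order kept its order in 12 of 12 libraries.

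**Figure D4:**
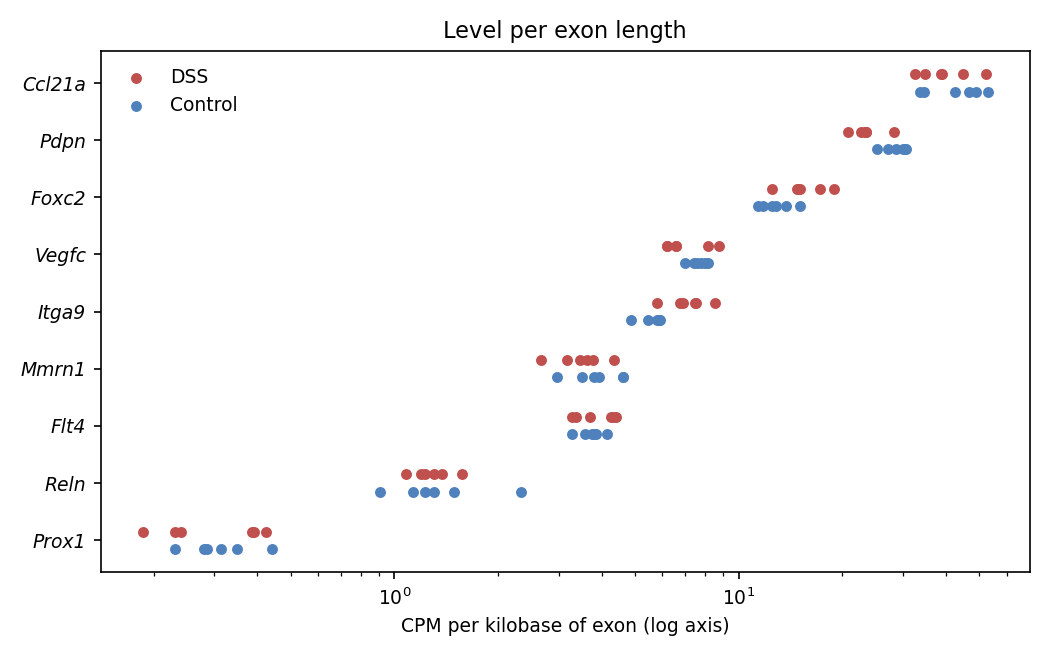
Level of each lymphatic endothelial gene per kilobase of exon (horizontal log axis, CPM per kilobase) in 6 DSS libraries (red, upper row of each gene) and 6 Control libraries (blue, lower row), 1 point per mouse. Ccl21a is highest and Prox1 lowest in all 12 libraries, Vegfc and Itga9 overlap in DSS libraries but not in Control libraries, and Flt4 and Mmrn1 overlap in both.

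The members did not vary together from mouse to mouse. As a description of likeness, Pearson's r was taken between log2 CPM of genes over the 12 libraries after subtracting each group's mean; the points share library depth and tissue composition. Among the 36 pairs of members the median r was -0.01, and 2 pairs had r above 0.5. Those pairs were Vegfc with Flt4 (r = 0.71) and Mmrn1 with Reln (r = 0.59). Among the 4 pairs with r below -0.5, the lowest was Foxc2 with Mmrn1 (r = -0.74). Flt4 followed the pan-endothelial sum (r = 0.81), and the 3 genes most like it were Rbpms, Cytl1 and the endothelial receptor gene Tie1 (r = 0.94, 0.92 and 0.91). No member was among the 3 genes most like another member. This says little, since the search covered all tested genes above a low level and without a predicted symbol. Over 12 libraries, so wide a search can find high r by selection alone. The closest gene to Vegfc was Slc6a7 (r = 0.97), to Itga9 B4galt5 (r = 0.96), to Reln Cdc7 (r = 0.93), to Prox1 Dcun1d1 (r = 0.91), to Ccl21a Dclre1a (r = 0.91), to Pdpn Casp8 (r = 0.89), to Foxc2 Zkscan17 (r = 0.89) and to Mmrn1 Edrf1 (r = 0.88).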

How the data were processed

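Total RNA from the meninges was made into libraries, 12 in all, with a stranded total RNA kit, per the labels' protocols. Reads were processed with Trim Galore, HISAT2 and featureCounts on mm10, per the submitters' processing notes; versions, annotation, strand setting and the handling of reads with several matches are, for this series, not given in the sources used. The authors deposited a table of raw counts and a table of normalized signal, which was checked to equal the counts divided by median-of-ratios size factors.

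From the counts, edgeR 4.0.16 (R 4.3.3) was run with filterByExpr (minimum count 10, minimum total 15), TMM factors and the quasi-likelihood test with treatment as the only term, with Benjamini-Hochberg adjustment over 18593 genes at 0.05. Standard errors were derived from the fold change and its F value. Alternatives used DESeq2 1.42.0, limma 3.58.1 (voom, and log2 of the deposited normalized signal plus a pseudocount of 1), other filters and scalings, and omission of libraries. Single ratios, shares and sums were compared by exact two-sided permutation tests over 924 splits, whose smallest p is 0.00216. Coordinates, exon lengths and sequences come from GENCODE M21, in which 94.8% of symbols were found.

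The members, gene lists and pairs of replicates to omit were chosen with earlier results of these data known. Genes named are the members, up to 4 called genes with the smallest p of each list, a few fixed markers and the genes most like each member; some uncalled list genes were named in addition after their values were seen. One called gene of the wider pathway is counted but not reported here. The titles give each library a group and a number, and each was read as 1 mouse. Nothing says more about how the mice were housed, so p-values set the group difference against the spread between these libraries.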

Additional observations from a re-analysis of the deposited data

Results flagged for a closer look

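Pdpn in DSS replicate 4, at 51.3 CPM, lay apart from the other 5 DSS mice, of which the nearest was at 42.6 CPM and the lowest at 37.8 CPM. Its gap to the nearest mouse was 0.64 of the range of the group, above Dixon's 95% critical value for 6 samples. In all, 18 groups of 6 were examined, and chance flags about 1 group in 20. DSS replicate 4 was also the highest library for Itga9, at 65.5 CPM, and for Lyve1, at 40.8 CPM.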

How the results depend on the processing

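Against 919 genes called by edgeR, DESeq2's Wald test called 1563 and scaling to the pan-endothelial list 410 (224 higher, 186 lower, against 684 and 235), and fits without 1 library called 538 to 1379. Of the members, 2 were called; 1 was called with DESeq2 size factors, with limma-trend and without both replicates numbered 2, and 0 without the filter, with the replicate block, with pan-endothelial scaling, and 0 to 2 without 1 library. Itga9 passed in 14 and Pdpn in 6 of 22 alternatives, both with their direction kept, and the other 7 members in 0. With the block, edgeR's adjusted p was 0.0544 for Itga9 and 0.135 for Pdpn. Same-numbered mice had correlations of -0.189 to 0.154. Differently numbered mice were not compared, so these values cannot decide whether the numbers pair the mice. Flt4 was -0.11 on the log2 scale with pan-endothelial scaling, Prox1 ranged from -0.16 to 0.08 and Reln from -0.20 to 0.10 without 1 library, and Ccl21a was 0.03 without both replicates numbered 2 and 0.02 with its copies added, a setting chosen after seeing the data. The cause was not tested. Prox1 had the fewest counts among the members, 26 to 171.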
